A study of Mus musculus with 6 samples.

Results

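The Hox genes are homeobox genes that lie in 4 clusters, HoxA on chromosome 6, HoxB on 11, HoxC on 15 and HoxD on 2, and are numbered by paralog group, the position that matching genes share across the clusters. The 38 genes described here are the 38 listed members of the HoxA, HoxB, HoxC and HoxD clusters among the 24973 rows of the deposited table, taken by gene symbol. The table holds 6 arrays of C57Bl/6 mouse embryos at embryonic day 11.5. Of these, 3 are of dorsal aortic tissue, lying from the notochord to the aortic roof, and 3 are of ventral aortic tissue from below the aorta. Both tissues were cut by laser microdissection from cryosections of unfixed embryos, and no group carries a genetic change or a treatment. The study concerns the surroundings in which blood stem cells arise, and the comparison asks which genes differ across the 2 sides of the aorta. The labels call the arrays biological replicates 1 to 3 of each tissue and do not say whether sections of several embryos were pooled.

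Hox proteins bind DNA through the homeodomain and give cells along the body axis their regional identity. Low paralog groups are switched on earlier and reach further towards the head, and high groups are switched on later and are restricted to the tail end, so the set of Hox genes a tissue expresses reflects its axial level. In the trunk, the same level can carry different Hox genes in the somites, the neural tube, the kidney primordia and the mesenchyme of the gut. Hox proteins bind DNA together with TALE homeodomain partners of the Meis and Pbx families, their early expression depends on retinoic acid and Cdx factors, and Polycomb and trithorax proteins maintain it.

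Levels are the deposited log2 values, and a difference of 1 is a doubling. The difference of each gene was fitted with limma over 12028 named genes whose mean reached the median of all probe sets, 4.52 (log2), with the replicate number as a block, and the threshold was an adjusted p of 0.05. Over all genes 62 passed, 0.515% of those tested, 37 of them higher in ventral and 25 in dorsal tissue, and the smallest difference among them was 1.32 (log2). Tissue markers ran the way of the labels in part. Among the 9 tested sclerotome genes 6 had negative and 3 positive differences. Pax1 (−2.60 ± 0.24, SE; adjusted p = 0.0183) and Col2a1 (−1.75 ± 0.19; adjusted p = 0.0258) were called lower in ventral tissue. The positive ones, Foxc2 (0.22), Meox1 (0.05) and Meox2 (0.86), did not pass. Among the 9 tested splanchnic mesenchyme genes 7 had positive and 2 negative differences. Gata6, Tcf21 and Hlx were called higher in ventral tissue and Foxf2 lower. Foxf1 was the other negative one and did not pass (−1.71, adjusted p = 0.468). Foxf2 was below 4.52 on all 3 ventral arrays and was tested through the dorsal ones. With no filter the calls of Gata6 and Tcf21 stayed (adjusted p = 0.0197 and 0.0259), and those of Pax1 (0.0756), Col2a1 (0.0816), Hlx (0.0647) and Foxf2 (0.0753) were lost. The call of Foxf2 was also lost without the block (adjusted p = 0.0742). The dorsal 3 array stood apart: of 13 neural tube and neuron genes, only 7 of which were tested, 10 were highest on it. The share over all genes tested was 19.0%, a set without the genes below the level for testing. In the same list 2 genes, Nefl and Isl2, were lowest on it, with Nefl at 5.24 there and 6.48 to 7.02 elsewhere. The mean level of that list was 6.06 on dorsal 3, 5.01 and 5.19 on the other dorsal arrays and 4.79 to 4.996 on the ventral arrays. Sox2, a neural progenitor factor picked out after its values were seen, read 9.69 on dorsal 3 and at most 6.50 on any other array. On all 6 arrays 3 of the 13 genes lay below 4.52. Of the 14 Hox genes given in full, differences that moved by more than 1.5 times without dorsal 3 or its pair are given with and without it.

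RNA sequences inside the clusters are shown because the microRNAs there belong to the same gene neighbourhoods as the proteins and some are known to repress Hox messages. The mature forms below are from RefSeq on GRCm38.p6, 5′ to 3′, with the seed (bases 2 to 8) in capitals.
miR-10a-5p: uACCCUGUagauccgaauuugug
miR-10b-5p: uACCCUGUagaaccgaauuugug
miR-196a-5p: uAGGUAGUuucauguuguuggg
miR-615-3p: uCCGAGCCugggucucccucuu

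The miR-10a and miR-10b forms share their seed and differ by U12A, counted from the 5′ end of miR-10a. The first is encoded at chr11:96317186-96317208 (plus strand), within the span of Hoxb3, and the second at chr2:74726074-74726096 (plus strand), within those of Hoxd3 and Hoxd4. The miR-196a form is encoded at chr11:96265187-96265208 and chr15:102973365-102973386, and miR-615 at chr15:103014969-103014990 within the span of Hoxc5, all on the plus strand. None of the 5 probe sets for these microRNA genes reached a mean of 4.52, so none was tested. Mir10a read 3.27, 3.33 and 2.45 in dorsal and 2.29, 2.27 and 3.64 in ventral tissue, and Mir10b read 1.94 to 2.10 on all 6 arrays. Mir615 read 5.52 on dorsal 3 and 2.87 to 3.46 on the other arrays. These are levels of probe sets named for the microRNA genes, and whether they follow the mature forms was not tested.

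Promoter windows are shown for Hoxd10 and Hoxd11, neighbours in the HoxD cluster that were higher in ventral tissue in all 3 pairs, and for Hoxa5, which was too. Each window holds the 250 bases before a RefSeq start site on GRCm38.p6, 5′ to 3′ along the gene, with matched motifs in capitals. RefSeq windows were matched for 22 of the 38 genes.
Hoxd10, chr2:74691641-74691890, plus strand: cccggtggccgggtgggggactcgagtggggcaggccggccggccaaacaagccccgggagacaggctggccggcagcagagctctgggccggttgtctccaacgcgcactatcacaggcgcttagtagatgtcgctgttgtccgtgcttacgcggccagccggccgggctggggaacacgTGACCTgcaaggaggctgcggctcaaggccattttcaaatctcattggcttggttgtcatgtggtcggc
Hoxd11, upstream start, chr2:74679308-74679557, plus strand: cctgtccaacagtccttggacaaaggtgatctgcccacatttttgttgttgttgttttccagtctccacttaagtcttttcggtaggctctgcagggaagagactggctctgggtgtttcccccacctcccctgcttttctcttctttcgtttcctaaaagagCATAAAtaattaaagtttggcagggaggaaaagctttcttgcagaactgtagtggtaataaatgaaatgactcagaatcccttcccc
Hoxd11, downstream start, chr2:74682073-74682322, plus strand: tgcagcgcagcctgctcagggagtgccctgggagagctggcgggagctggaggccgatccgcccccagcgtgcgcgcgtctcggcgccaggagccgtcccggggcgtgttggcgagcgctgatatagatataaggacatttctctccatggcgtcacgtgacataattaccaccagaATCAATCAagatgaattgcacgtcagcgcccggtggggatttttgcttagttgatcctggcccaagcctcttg
Hoxa5, chr6:52204588-52204837, minus strand: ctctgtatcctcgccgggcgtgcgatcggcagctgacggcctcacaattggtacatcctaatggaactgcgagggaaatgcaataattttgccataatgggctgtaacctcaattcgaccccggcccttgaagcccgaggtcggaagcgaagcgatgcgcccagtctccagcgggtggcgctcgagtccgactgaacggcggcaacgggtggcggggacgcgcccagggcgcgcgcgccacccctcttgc

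The motifs searched, on both strands, were TGATNNAT for Pbx with Hox, TTTATG for Cdx and AGGTCA for the half-site of retinoic acid receptors. The Hoxd10 window held 1 match, to AGGTCA on the opposite strand. At Hoxd11 the upstream window held 1 match, to TTTATG, and the downstream window 1, to TGATNNAT, both on the opposite strand. The Hoxa5 window held none of the 3. Of all 32851 promoter windows of this length 7.68% held TGATNNAT, 10.8% TTTATG and 14.02% AGGTCA. Of the 24 windows of the 22 Hox genes 4, 5 and 6 held them (16.7%, 20.8% and 25.0%). These matches are letters in a window, not measured binding sites.

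The Hox genes read out on these arrays were mainly those of paralog groups 2 to 11. Of the 38 genes, 24 had a mean at or above 4.52 and were tested, and 14 did not. Levels cannot be ranked between genes, since each probe set responds differently, so each group is given by how many of its members passed that level. Both genes of group 1 (Hoxb1 and Hoxd1, hindbrain genes in early embryos) stayed below it on every array. All 5 genes of groups 2 and 3 passed it. So did 13 of the 15 genes of groups 4 to 8, the trunk groups, the exceptions being Hoxb4 and Hoxa6. In groups 9, 10 and 11 the genes that passed were Hoxa9, Hoxb9, Hoxc10, Hoxd10, Hoxa11 and Hoxd11. The 6 genes of groups 12 and 13, which pattern the tail, the hindgut and the limb ends, did not pass. By cluster 7 of 10 HoxA, 7 of 10 HoxB, 5 of 9 HoxC and 5 of 9 HoxD genes were tested. On all 6 arrays 17 of the 38 genes were above the level and 8 were below it. The genes nearest to it were Hoxa6 (mean 4.45) below, and Hoxa11 (4.56) and Hoxd11 (4.58) above. Those just above passed through their brighter arrays, with Hoxa11 above 4.52 on dorsal 1 and ventral 1 only, and Hoxd11 on these and ventral 3.

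**Figure D1:**
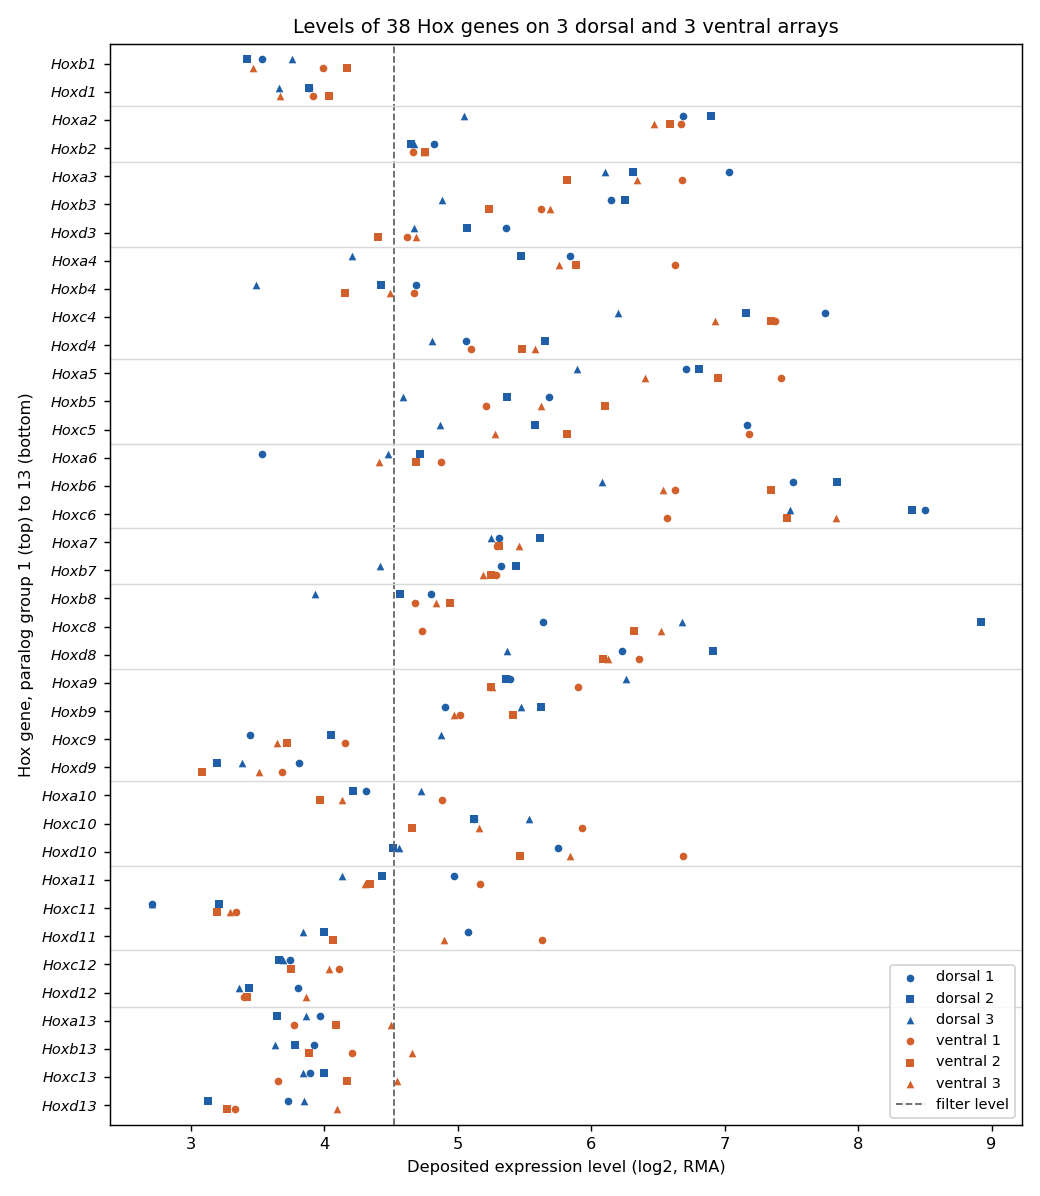
Deposited log2 level of each of the 38 Hox genes (rows, by paralog group) on each array, with dorsal arrays in blue, ventral arrays in orange, replicate numbers by marker shape and the filter level of 4.52 as a dashed line. Points of groups 2 to 8 lie mostly to the right of the line, those of groups 12 and 13 mostly to the left, and the blue triangle of dorsal 3 is the leftmost point in many rows of groups 2 to 8.

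None of the 24 tested Hox genes passed the threshold between ventral and dorsal tissue in limma, against 0.515% of all genes. At an unadjusted p under 0.05 there were 4 (16.7%), against 10.7% of all genes. That count was 1 (4.17%, against 10.07%) without the block, 7 (29.2%, against 9.27%) without replicate 3, and 0 without dorsal 2 or ventral 1 alone (no block). The 3 dorsal and 3 ventral arrays overlapped for all 24, while they did not overlap for 15.4% of all genes tested. Of the 24, 14 had positive and 10 negative ventral minus dorsal differences, with a median of 0.06 (log2), and the median over all genes was −0.01. The difference had the same sign in all 3 pairs for 6 of the 24, 5 of them higher in ventral tissue, against 32.3% of all genes. The split by sign turned when arrays were left out: without replicate 3, 10 were positive and 14 negative, with a median of −0.06, and without dorsal 3 alone (no block) 9 were positive and 15 negative. It was 11 and 12 without replicate 1, and 10 and 12 without ventral 1 alone (no block). In such bulk samples, fewer cells of a type and less RNA per cell cannot be told apart. No Hox gene passed without any pair, without any single array, or without the block, where the lowest adjusted p was 0.438. Fitted with no filter, which adds the other 14 genes, the lowest adjusted p was 0.157. Hoxc12 was the only one of those 14 whose tissues did not overlap (3.66 to 3.75 in dorsal and 3.75 to 4.11 in ventral tissue), at levels below 4.52 on every array.

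**Figure D2:**
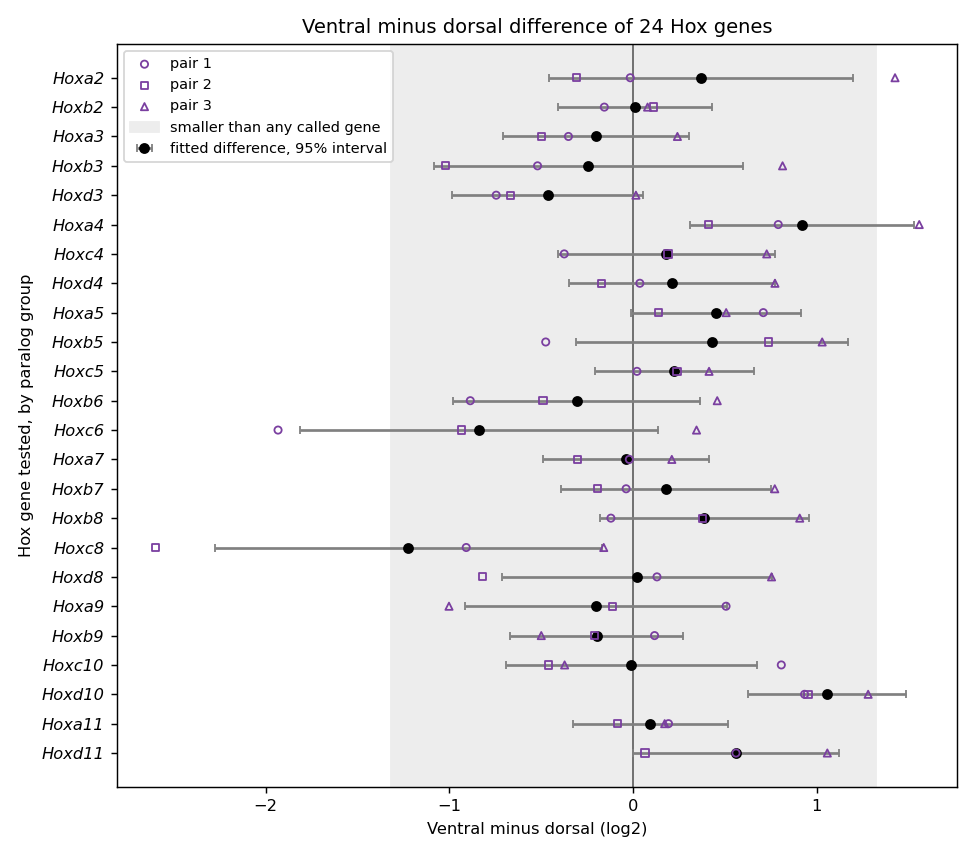
Ventral minus dorsal difference (log2) of the 24 tested Hox genes, with filled points for the fitted difference, bars for its 95% interval, open symbols for the 3 same-numbered pairs and grey shading for differences smaller than that of any gene called over the whole array (1.32). Intervals include 0 for all but Hoxa4, Hoxc8, Hoxd10 and Hoxd11, and none of the fitted differences leaves the shading.

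Hoxd10 and Hoxd11 had positive differences in all 3 pairs, and neither passed. Hoxd10 (Entrez 15430), a posterior gene of the lumbar region and hindlimb field, read 5.75, 4.51 and 4.56 on dorsal arrays 1 to 3 and 6.69, 5.47 and 5.84 on ventral arrays 1 to 3. Ventral was higher in each pair, by 0.93, 0.95 and 1.28, but the tissues overlapped, as dorsal 1 exceeded ventral 2. The difference was 1.05 ± 0.18 (SE; adjusted p = 0.0864; 2.08-fold), with a 95% interval of 0.62 to 1.49, and it rested on the pairing, with an SE of 0.41 and an adjusted p of 0.438 without the block. Hoxd11 (Entrez 15431), its neighbour, which acts with Hoxa11 in kidney and forearm formation, read 5.07, 4.0 and 3.84 in dorsal and 5.63, 4.06 and 4.89 in ventral tissue. Its difference was 0.56 ± 0.23 (adjusted p = 0.464), the second pair differing by 0.06 only, and it was 0.31 without replicate 3. Hoxd11 was tested only through its 3 brighter arrays, and without replicate 1, or without any 1 of those arrays, it did not reach the filter level. The RefSeq spans of Hoxd10 and Hoxd11 overlap, so the 2 probe sets may share signal. Hoxa11 differed by 0.09 (95% interval −0.33 to 0.51) and Hoxc10 by −0.01 (−0.69 to 0.67). The interval of Hoxc10 overlapped that of Hoxd10 and that of Hoxa11 did not, and whether the genes differ from each other was not tested.

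The tested genes of groups 4 and 5 had positive differences, and none passed. Hoxa4 (Entrez 15401), a gene of the neck and upper trunk, read 5.84, 5.48 and 4.20 in dorsal and 6.63, 5.89 and 5.76 in ventral tissue. Dorsal 3 was the lowest array and dorsal 1 lay above ventral 3. The difference was 0.92 ± 0.25 (adjusted p = 0.254), and it was 0.60 without replicate 3 and 0.43 without dorsal 3 alone. Hoxa5 (Entrez 15402), which is needed for lung and airway mesenchyme, read 6.71, 6.81 and 5.90 in dorsal and 7.42, 6.95 and 6.40 in ventral tissue, a difference of 0.45 ± 0.19 (adjusted p = 0.474), or 0.16 without dorsal 3 alone. Hoxb5, a gene of trunk and gut mesenchyme and of the nerve cells of the gut, read 5.68, 5.37 and 4.59 in dorsal and 5.21, 6.11 and 5.62 in ventral tissue (0.43 ± 0.31, adjusted p = 0.705), or 0.12 without dorsal 3 alone. Its first pair ran the other way. Dorsal 3 was the lowest array for all 6 tested genes of these groups. All 6 differences were positive, and without replicate 3, or without dorsal 3 alone, 4 were. Without replicate 3 Hoxc4 was −0.093 and Hoxd4 −0.068, and without dorsal 3 alone Hoxc4 was −0.24 and Hoxc5 −0.28. With all arrays, for Hoxc4 (95% interval −0.41 to 0.77), Hoxd4 (−0.35 to 0.77) and Hoxc5 (−0.21 to 0.66) they were no larger than 0.22.

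Hoxc6 and Hoxc8 had the largest negative differences of the 24, and neither passed. Hoxc8 (Entrez 15426), a thoracic gene, read 5.64, 8.92 and 6.68 in dorsal and 4.73, 6.32 and 6.52 in ventral tissue. Its range across the 6 arrays was the widest of the 24 genes, and the tissues overlapped because dorsal 1 was below ventral 2 and ventral 3. The difference was −1.22 ± 0.44 (adjusted p = 0.385), and it rested on dorsal 2: without replicate 2 it was −0.53, and without dorsal 2 alone −0.30. Hoxc6 (Entrez 15425), also a thoracic gene, read 8.50, 8.40 and 7.49 in dorsal and 6.57, 7.47 and 7.84 in ventral tissue. The third pair ran against the others, and the difference was −0.84 ± 0.40 (adjusted p = 0.537), or −1.43 ± 0.30 (adjusted p = 0.206) without replicate 3 and −0.29 without replicate 1. Without ventral 1 alone it was −0.48. Hoxb6, of the same paralog group, had a difference of −0.31 ± 0.28 (adjusted p = 0.789), or −0.84 without dorsal 3 alone. Hoxb8, which shares group 8 with Hoxc8, had one of 0.39 ± 0.24 (adjusted p = 0.645), with dorsal 3 at 3.93 and the other 5 arrays at 4.57 to 4.95, and 0.14 without dorsal 3 alone. Members of one paralog group thus had fitted differences of both signs.

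The 3 genes of group 3 had negative differences, and none passed. Hoxd3 (Entrez 15434), a gene of the cervical vertebrae, read 5.36, 5.07 and 4.67 in dorsal and 4.62, 4.40 and 4.68 in ventral tissue, with dorsal 3 just below ventral 3. The difference was −0.47 ± 0.22 (adjusted p = 0.516), or −0.71 without replicate 3. Hoxa3, which is needed for the thymus and parathyroid, differed by −0.20 ± 0.21 (adjusted p = 0.815), or −0.43 without replicate 3. Hoxb3 differed by −0.24 (95% interval −1.08 to 0.60), or −0.77 without replicate 3. Hoxa2, a group 2 gene that patterns the branchial arches, read 5.05 on dorsal 3 and 6.47 to 6.90 on the other 5 arrays. Its difference of 0.37 ± 0.34 (adjusted p = 0.795) became −0.16 without replicate 3. In group 9, Hoxb9 (−0.20 ± 0.20, adjusted p = 0.806) and Hoxa9 (−0.20, 95% interval −0.92 to 0.51), genes of the lower thorax, did not pass. Without replicate 3 Hoxb9 was −0.046 and Hoxa9 0.20.

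**Figure D3:**
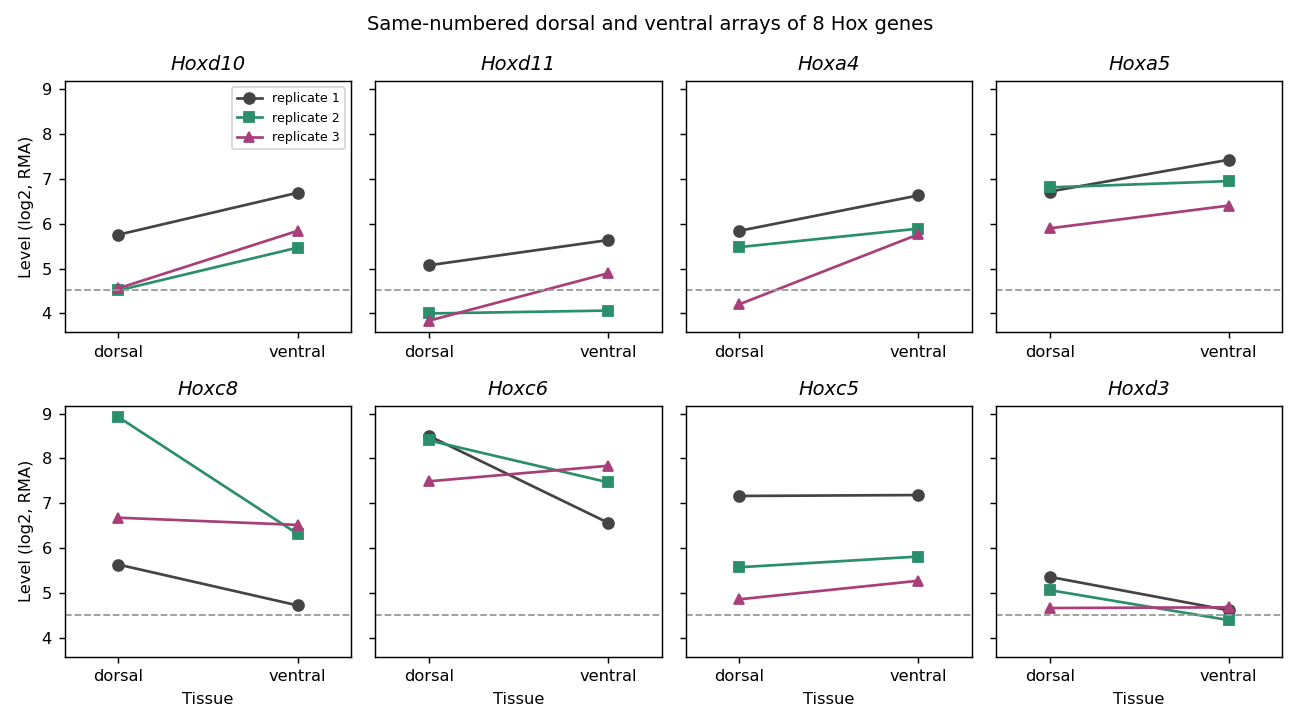
Levels (log2) of 8 Hox genes on the same-numbered dorsal and ventral arrays, joined by lines, with the filter level of 4.52 dashed. The 3 lines rise from dorsal to ventral for Hoxd10, Hoxd11, Hoxa4, Hoxa5 and Hoxc5 and fall for Hoxc8, while Hoxc6 and Hoxd3 have lines of both slopes and the replicate 1 line of Hoxc5 lies far above its other lines.

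Hox levels varied widely from array to array. The standard deviation over the 6 arrays had a median of 0.505 (log2) for the 24 tested Hox genes and 0.267 for all genes tested, and 22 of the 24 lay above the latter. Hoxb2 (4.65 to 4.82) and Hoxa7 (5.25 to 5.61) were the steady exceptions. Dorsal 3 was the lowest of the 6 arrays for 15 of the 24 genes (62.5%), where it was the lowest for 17.9% of all genes tested. It was lowest for 13 of the 18 genes of groups 2 to 8 and for 2 of the 6 genes of groups 9 to 11. Relative to each gene's own mean, the median over groups 4 to 8 was −0.80 on dorsal 3 and 0.05 to 0.24 on the other 5 arrays. Over groups 9 to 11 it was −0.09 on dorsal 3, where the genes were split. Hoxa9 (0.69), Hoxb9 (0.24) and Hoxc10 (0.28) lay above their own means there, and Hoxd10 (−0.91), Hoxa11 (−0.43) and Hoxd11 (−0.75) below. Hoxa9 was highest on dorsal 3, at 6.26 against 5.25 to 5.90 elsewhere. Hoxc9, below the level for testing and named after its values were seen, read 4.88 there and 3.44 to 4.15 elsewhere. The neural genes that were high on dorsal 3 moved with these low values in groups 4 to 8, and their part in it was not tested.

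**Figure D4:**
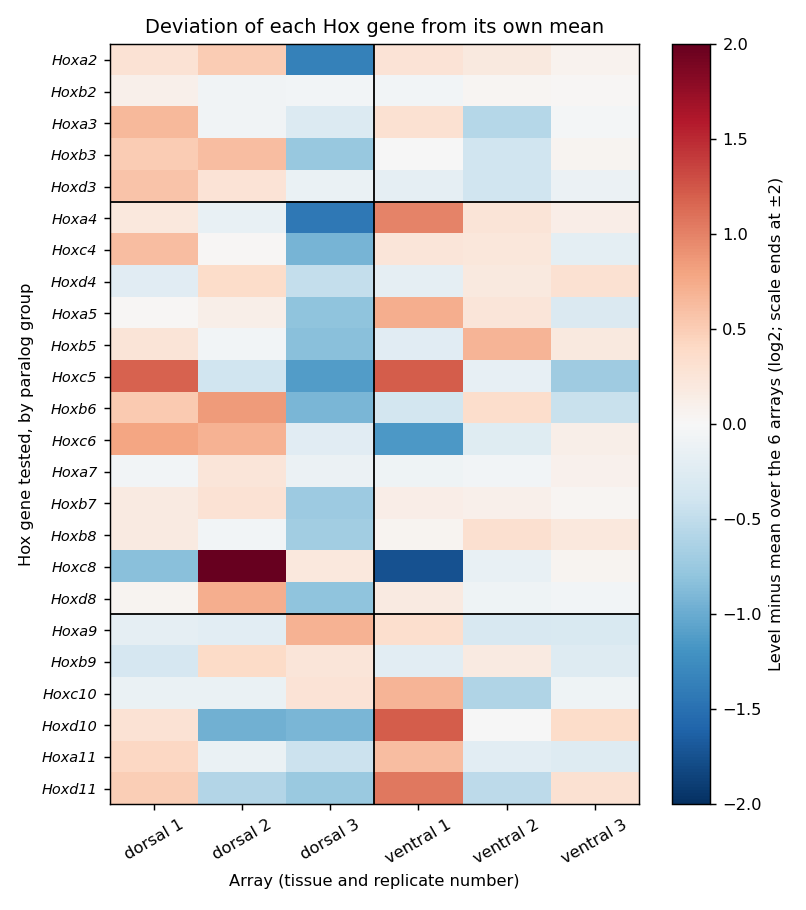
Level of each of the 24 tested Hox genes minus its own mean over the 6 arrays (log2, red above and blue below the mean, colour scale ending at ±2), with horizontal lines after paralog groups 3 and 8. The dorsal 3 column is blue in groups 4 to 8 except at Hoxc8, and the ventral 1 column is reddest at Hoxc5, Hoxd10, Hoxd11 and Hoxa4.

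Whether Hox levels differed by replicate number across both tissues was asked with limma's F test of the number in the same fit. None of the 24 passed an adjusted p of 0.05, and 12 of all genes did (0.0998%). At an unadjusted p under 0.05 there were 10 Hox genes (41.7%), against 6.00% of all genes. With no filter, so that all 38 members entered, there were 12 (31.6%), against 5.71%. Of the 10, 8 had their highest mean on replicate 1, and 6 had their lowest on replicate 3. Hoxa11 and Hoxd11, both among the 8, reached the filter level only through brighter arrays that include those of replicate 1. Hoxc5 (Entrez 15424), a trunk gene beside Hoxc4 and Hoxc6, read 7.16 and 7.19 on the dorsal and ventral arrays of replicate 1, 5.58 and 5.82 on those of replicate 2 and 4.86 and 5.28 on those of replicate 3. The replicate 1 arrays lay close together and above the other 4, while ventral 3 was nearer to dorsal 2 than to dorsal 3. The tissues differed by 0.22 ± 0.18 (adjusted p = 0.744). Its adjusted p for the replicate number was 0.0988. It was 0.0250 without replicate 2, where Hoxc5 was the 1 Hox gene called, and 0.521 without replicate 3.

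The posterior genes Hoxd10 and Hoxd11 had their highest means on replicate 1. The mean of the dorsal and the ventral array was 6.22, 4.99 and 5.20 for Hoxd10 on numbers 1 to 3, and 5.35, 4.03 and 4.37 for Hoxd11 (adjusted p = 0.463 and 0.630). For Hoxa11 it was 5.07, 4.39 and 4.22, and as this gene was tested only through its replicate 1 arrays, that order is partly set by the filter. The order of Hoxd11 is partly set by the filter too, as this gene was tested only through dorsal 1, ventral 1 and ventral 3. Its probe set may also share signal with that of Hoxd10. Hoxc8 ran the other way, with 5.18 on replicate 1, 7.62 on replicate 2 and 6.601 on replicate 3 (adjusted p = 0.684). Without replicate 3, which holds dorsal 3, 6 of 24 Hox genes (25.0%) had an unadjusted p under 0.05 between replicates 1 and 2, against 5.38% of all genes. The labels do not give the axial level of the sections, and a shared embryo, a shared section level and a shared batch cannot be told apart by number.

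The partners and regulators of Hox genes were taken as fixed lists, and 1 of their genes passed, a call that was lost with no filter. Of the 10 tested TALE cofactors none passed, 8 had positive differences, against 47.7% of all genes, and the tissues did not overlap for 4, against 15.4%. Meis2, a partner of Hox proteins, read 7.54 ± 0.50 (SD, n = 3) in dorsal and 8.89 ± 0.49 in ventral tissue, a difference of 1.35 ± 0.23 (SE; adjusted p = 0.0856). Meis3 (0.58 ± 0.17, adjusted p = 0.279) and Meis1 (0.69 ± 0.21, adjusted p = 0.298) followed. Of 10 tested genes of retinoic acid receptors and turnover 4 had positive and 6 negative differences, with a median of −0.14. Among them Aldh1a1, a retinaldehyde dehydrogenase that makes retinoic acid, rose from 4.002 ± 0.14 in dorsal to 5.62 ± 0.27 in ventral tissue (1.62 ± 0.18, adjusted p = 0.0258). It was below 4.52 on all 3 dorsal arrays and was tested through the ventral ones, and with no filter its call was lost (adjusted p = 0.0794). The binding protein gene Crabp1 (−1.14 ± 0.22, adjusted p = 0.121) and the receptor genes Rarb (0.70 ± 0.23, adjusted p = 0.348) and Rarg (−0.57 ± 0.31, adjusted p = 0.590) did not pass. Aldh1a2 did not pass either (0.77 ± 0.70, adjusted p = 0.789). It read 4.13, 5.75 and 4.24 in dorsal and 7.33, 5.36 and 3.73 in ventral tissue.

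None of the other lists of this kind held a called gene. Of the 10 Cdx and axial extension genes named on the array 6 were below 4.52 on every array, among them Cdx1, Cdx2 and Cdx4, and the smallest p of the 4 tested was that of Lin28b (−0.50 ± 0.26, adjusted p = 0.572), followed by Cyp26a1 (adjusted p = 0.673) and Lin28a (adjusted p = 0.942). Of 23 tested Polycomb and trithorax genes 6 had positive and 17 negative differences, with a median of −0.13, and Kmt2a, a trithorax methyltransferase that keeps Hox genes active, read −0.37 ± 0.19 (adjusted p = 0.575). Ezh2 (−0.36 ± 0.20, adjusted p = 0.5996) and Bmi1 (−0.36 ± 0.20, adjusted p = 0.606), of the repressive Polycomb complexes, were next. Of 13 noncoding RNAs of the clusters 3 were tested, namely Hoxb5os (0.37 ± 0.17, adjusted p = 0.516), Hoxb3os (0.27 ± 0.17, adjusted p = 0.653) and Hoxaas3 (0.07 ± 0.24, adjusted p = 0.957). Hotair, transcribed between Hoxc11 and Hoxc12, read 3.09 to 3.62 in dorsal and 3.88 to 4.32 in ventral tissue, below 4.52 throughout, and is named here after its values were seen. Of the 9 tested protein-coding neighbours of the clusters, Skap2, next to HoxA, was the nearest to the threshold (0.97 ± 0.26, adjusted p = 0.238), with Lnpk (−0.42 ± 0.18, adjusted p = 0.477) and Snx10 (−0.51 ± 0.26, adjusted p = 0.569) behind it.

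Markers of other tissues that the sections could hold did not pass either. Of the 6 tested mesonephros genes 3 had positive and 3 negative differences. Wt1, which marks the lining of the body cavity and the kidney primordia, came nearest (1.29 ± 0.20, adjusted p = 0.0715), before Six2 (−0.76 ± 0.44, or −0.030 without replicate 3) and Osr1 (0.70 ± 0.42). Pax2, Pax8 and Lhx1 were below 4.52 on every array. Emx2, below the level for testing and named after its values were seen, read 5.01, 3.66 and 7.98 in dorsal and 3.62, 3.23 and 3.24 in ventral tissue. The mean level of the mesonephros list, untested genes included, was 4.79 to 5.16 in dorsal and 4.85 to 5.05 in ventral tissue. Of the 10 endothelial genes 9 had positive differences, with Kdr (1.00 ± 0.20, adjusted p = 0.121), Cldn5 and Sox18 nearest to the threshold. All 7 tested erythroid genes had negative differences, led by Alas2 (−0.93 ± 0.26, adjusted p = 0.264), Klf1 and Slc4a1. Of the 7 tested neural genes 6 had negative differences, and the smallest p-values were those of Tubb3 (−0.95 ± 0.24, adjusted p = 0.214), Stmn2 and Elavl3. The part of these tissues in the Hox values was not tested.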

How the data were processed

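Per the submitters' processing notes, the values were made by the authors with Expression Console (Affymetrix) and RMA, a method of background correction, quantile normalization and probe summary. The deposited values are log2 levels. No genome build or tool version is given in the sources used here. Picogram amounts of RNA were amplified before labelling, per the labels' protocols, which may distort low levels. Rows were named by the platform table (24015 of 24973), and all 38 Hox genes matched RefSeq by Entrez identifier. The RefSeq spans of 10 overlap another Hox gene's, and the deposited values cannot separate shared signal.

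Fits used R 4.3.3 and limma 3.58.1 (lmFit, eBayes, two-sided, Benjamini-Hochberg adjustment), tested on simulated data. The median SE was 0.196 over all genes tested and 0.236 over the tested Hox genes, and the number of arrays (3 for each tissue) limits the precision. Replicate numbers were used as a block because the labels place both tissues in the same embryos, although they do not say that a number marks an embryo. Same-numbered arrays deviated together by 0.0992, 0.0763 and 0.226 (correlation over genes, numbers 1 to 3) and differently numbered arrays by −0.153 to 0.0805, a range that holds the value of number 2. If arrays share embryos or pools, p-values measure the spread between such samples only.

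Members and lists were chosen with earlier results of these data known. The genes given in full are the 14 with the smallest p between the tissues and the 4 with the smallest p for the replicate number. From each of the other lists the called genes are named, or else the 3 with the smallest p. Crabp1, Rarb, Rarg, Aldh1a2, Cdx genes, Hotair, the microRNA genes, Hoxc9, Sox2, Nefl, Isl2, Foxf1, Foxc2, Meox1, Meox2, Emx2, Pax2, Pax8 and Lhx1 are named beyond this rule. Alternatives were no block, other filters, an intensity trend, other normalizations and leaving out arrays.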

Additional observations from a re-analysis of the deposited data

How the results depend on the processing

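No Hox gene was called between ventral and dorsal tissue under any of 15 other settings, of which 6, the single-array omissions without the block, were added after seeing the data. The count over all genes, 62, was 59 without the replicate block, 10 with no filter on low values, 94 with an intensity trend and 42 to 83 without a pair. It was 12 without dorsal 1 or ventral 2, 22 without dorsal 2, 39 without dorsal 3, 107 without ventral 1 and 15 without ventral 3. The other lists held 7 called genes, 2 with no filter and 5 to 7 without a pair. They held 1 without dorsal 1 or ventral 2, 4 without dorsal 2 and 2 without ventral 3. For the replicate number 12 genes passed, 0 with no filter, 6 with a filter at the 60th percentile and 0 to 36 without a pair (omissions added after seeing the data), where 0 to 1 Hox genes passed. The block changed no call of a Hox gene. Of 203 refitted differences of the 14 named genes 7 changed sign. Hoxa2 ranged from −0.16 to 0.70 without a pair. Without single arrays Hoxa2 went to −0.22 (dorsal 3), Hoxa3 to 0.070 (dorsal 1) and 0.027 (ventral 2), Hoxb6 to 0.040 (dorsal 2) and Hoxc5 to −0.28 (dorsal 3) and −0.32 (ventral 1). The cause was not tested. Signal limits the 14 genes below 4.52, where a difference could be missed.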
